A study of Mus musculus with 4 samples.

Results

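The 39 genes described here make the nucleotide sugars that carry monosaccharides into glycans, salvage or break down the amino sugars, move the finished donors into the Golgi, or run the neighbouring polyol pathway. They are a list of names, much of it the synthesis of nucleotide sugars and amino sugars, pathways that the study's own enrichment analysis of these libraries had placed toward luminal cells. Their direction as a group is therefore not independent evidence. All 39 were matched by identifier in the deposited table of 49671 genes. The table holds RNA-seq of epithelial cells sorted from the tips of the ventral prostate of untreated CD-1 mice at postnatal days 10 to 13. Basal cells were gated as EpCAM high and CD49f high, and the luminal cells, described by the submitters as derived from basal cells, as EpCAM high and CD49f low. Cells with CD45, CD31 or CD140a were removed from both gates, and no transgene, allele or agent is named for either group. Strain and age are those of the labels, while the methods add that the mice were males of mixed background and give an age range that ends a day earlier. Each group has 2 libraries, which carry the replicate numbers 1 and 3 for basal cells and 3 and 2 for luminal cells, and values are given in that order throughout. The sources name the ventral lobes of several mice and do not say which mice stand behind which library, so the p-values below measure the spread between libraries, which may be technical.

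Values are read counts per gene that the authors normalized to the same total of aligned reads in each library. Dividing by the value of 1 read gave 3194286 and 3080242 reads for the basal libraries and 1036680 and 643267 for the luminal ones, and 1 read is worth 6.26 in the deepest and 31.2 in the shallowest library. Nuclear protein-coding genes held 76.0% and 74.7% of the basal and 57.3% and 64.2% of the luminal totals, and under scaling to these genes the median log2 fold change was 0.21 over the whole table in place of -0.10, and 0.70 over the members in place of 0.40. Krt5, a keratin of basal cells, was at 18481 and 15824 in the basal libraries and 77 and 93 in the luminal ones. Krt19, a luminal keratin, was at 601 and 552 against 8306 and 4332, a ratio of 11.0. The other luminal markers differed less, with ratios of 2.96 for Krt8, 2.30 for Krt18 and 1.39 for Cd24a. The groups of Cd24a overlapped. All 8 stromal markers were above 0 in every library, their sum ranged from 106510 to 214781 in basal and from 73499 to 206796 in luminal libraries, and it was higher in basal replicate 3 and luminal replicate 2 than in the other library of the group. All 5 smooth muscle markers were above 0 too, with sums from 30255 to 52272 and from 9887 to 60111. Pdgfra, which encodes the CD140a used to remove cells, was at 3307 and 4144 in basal libraries and 2575 and 8383 in luminal ones. Endothelial sums ran from 1228 to 1422 and from 542 to 1153, with Cdh5 at 0 in luminal replicate 3, and immune sums from 1734 to 3019 and from 813 to 2056, with Ptprc at 0 in both luminal libraries. In such bulk samples, fewer cells of a type and less RNA per cell cannot be told apart.

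Nucleotide sugars are the activated form in which a cell holds its monosaccharides. Hexoses and amino sugars are phosphorylated, isomerized and joined to UDP, GDP or CMP in the cytosol, with the exception of CMP-sialic acid, which is made in the nucleus. Carriers of the SLC35 family then exchange the donors for nucleoside monophosphates across the Golgi membrane, where glycosyltransferases use them. GDP-mannose also feeds the dolichol-linked donors of N-glycosylation in the endoplasmic reticulum, and UDP-GlcNAc is the donor of O-GlcNAc on nuclear and cytosolic proteins. The prostatic luminal cell is a secretory cell whose products include many glycoproteins, and the basal cell lies on a matrix rich in glycoproteins and proteoglycans.

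Promoter sequences are shown for members that open the UDP-GlcNAc and sialic acid routes and for the last enzyme of the latter, because these are among the genes described most closely below. RefSeq promoters of GRCm38.p6 matched 30 of the 39 members, with 35 start sites, but not Nans, Nanp, Fpgt, Fuk, Tsta3, Gmppb, Gnpda1, Gnpnat1 and Uap1l1, and the 250 bases before each start were searched on both strands. The 4 windows printed hold no annotated exon, as do 12 of the 35, and they run 5′ to 3′ on the strand of the gene. Capitals mark the GC box GGGCGG or its reverse complement, and neighbouring boxes can share letters. Gfpt1 encodes the glutamine-dependent enzyme that opens the hexosamine route and Gfpt2 its paralog. Gne encodes the bifunctional epimerase and kinase that opens sialic acid synthesis, and Cmas the synthetase that closes it.
Gfpt1, chr6:87042596-87042845, plus strand: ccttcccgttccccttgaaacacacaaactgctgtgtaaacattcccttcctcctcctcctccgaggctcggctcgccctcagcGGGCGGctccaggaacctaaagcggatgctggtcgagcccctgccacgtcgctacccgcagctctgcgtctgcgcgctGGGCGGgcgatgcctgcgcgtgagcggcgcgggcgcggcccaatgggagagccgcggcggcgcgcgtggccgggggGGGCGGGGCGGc
Gfpt2, chr11:49793905-49794154, plus strand: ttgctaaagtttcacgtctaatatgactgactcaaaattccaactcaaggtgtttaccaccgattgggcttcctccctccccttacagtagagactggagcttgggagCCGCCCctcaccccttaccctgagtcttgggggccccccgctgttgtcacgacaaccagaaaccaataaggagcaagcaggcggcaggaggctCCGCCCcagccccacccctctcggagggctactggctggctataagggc
Gne, first start site, chr4:44084178-44084427, minus strand: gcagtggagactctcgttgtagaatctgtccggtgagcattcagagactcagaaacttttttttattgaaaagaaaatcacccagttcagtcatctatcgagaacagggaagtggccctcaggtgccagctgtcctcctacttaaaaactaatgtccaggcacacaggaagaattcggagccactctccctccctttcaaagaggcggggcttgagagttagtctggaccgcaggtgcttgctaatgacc
Cmas, chr6:142756436-142756685, plus strand: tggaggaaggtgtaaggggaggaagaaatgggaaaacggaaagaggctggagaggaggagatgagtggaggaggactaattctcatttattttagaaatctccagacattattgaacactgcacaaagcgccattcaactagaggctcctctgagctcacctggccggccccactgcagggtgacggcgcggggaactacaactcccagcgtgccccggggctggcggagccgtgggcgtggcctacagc

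The Gfpt1 window held 4 GC boxes in 72.0% G and C, and the Gfpt2 window held 2 in 57.6%. The windows of Gne and Cmas held none, at 48.8% and 56.8% G and C. Over the members, 23 of 35 windows (65.7%) held a GC box, against 32.7% of all 32851 promoters of the same length. The median content of G and C was 60.8% in the windows of the members and 52.4% in all windows. CCAAT was found in 28.6% of the windows of the members and in 33.8% of all, and TATAAA in 5.71% and 12.4%. TGACGTG, the core of the element bound in the unfolded protein response, the endoplasmic reticulum stress element and the palindromic androgen response element were in none of the 35 windows, and in 1.65%, 0.113% and 0.00913% of all. These are exact matches of letters only.

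Most genes of GDP-mannose, GDP-fucose and sialic acid synthesis were higher in luminal than in basal libraries, and those of the UDP sugars and amino sugars had no common direction. In the first set both luminal libraries lay above both basal ones in 11 of the 12 genes kept, with a median log2 fold change of 1.65. In the second this held for 4 of 20, with the opposite order in 2 and a median of 0.08. Within the second set, UDP-GlcNAc synthesis had a median of 0.89. This grouping of the routes was not planned in advance, and it leaves out the Golgi carriers and the polyol genes. Of all genes kept, 23.6% had both luminal libraries above and 27.3% had both below, so the 4 of 20 are near the share of all genes. The filter on low values asked that, in 1 group or in both, no library was under 10 and the average was 20 or more, and 38 of the 39 members and 18737 genes in all passed it. The member that failed was Nanp, the phosphatase of sialic acid synthesis, which had 1 read in luminal replicate 3 and 0 in the other libraries. By the fold rule, a ratio of group averages of at least 2 or at most 0.5, 15 of 38 members (39.5%) were higher in luminal cells, where 18.3% of all genes kept were. Another 2 of 38 (5.26%) were higher in basal cells, where 16.3% of all genes kept were, and 21 passed neither bound. The fold rule is a call by size with no test.

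No member passed limma on log2(value + 1) at an adjusted p under 0.05 in either direction, where 0.256% of all genes kept passed toward luminal and 0.438% toward basal cells. With the filter passed by both groups limma called 4 members toward luminal cells, Gfpt1, Pmm2, Gne and Cmas (adjusted p from 0.0118 to 0.0462), and with a pseudocount of 10 it called the first 3 of these. The share of all genes called toward luminal cells under these settings was 1.80% and 1.13%. The lowest limma adjusted p among the members was 0.0659, and 10 of 38 members had an unadjusted p under 0.05, against 18.5% of all genes kept. edgeR's quasi-likelihood test on recovered reads called 6 of 38 members (15.8%) higher in luminal cells, where 2.36% of all genes kept were called, and 0 higher in basal cells, where 2.72% were. At an unadjusted p under 0.05 edgeR gave 12 of 38, against 19.1% of all genes kept. DESeq2 called the same 6, where 2.80% of the 14379 genes it tested were called toward luminal and 2.89% toward basal cells. The 6 were Gfpt1, Pmm2, Gmds, Gne, Nans and Cmas. In 17 of 38 members both luminal libraries lay above both basal ones, where 23.6% of all genes kept did so, and in 2 members the order was the opposite, where 27.3% did so. An exact permutation test of 2 libraries against 2 cannot go below a two-sided p of 0.333, so no such test is given for single genes. The median log2 fold change, luminal minus basal, was 0.40 over the 38 members and -0.10 over all genes kept.

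**Figure D1:**
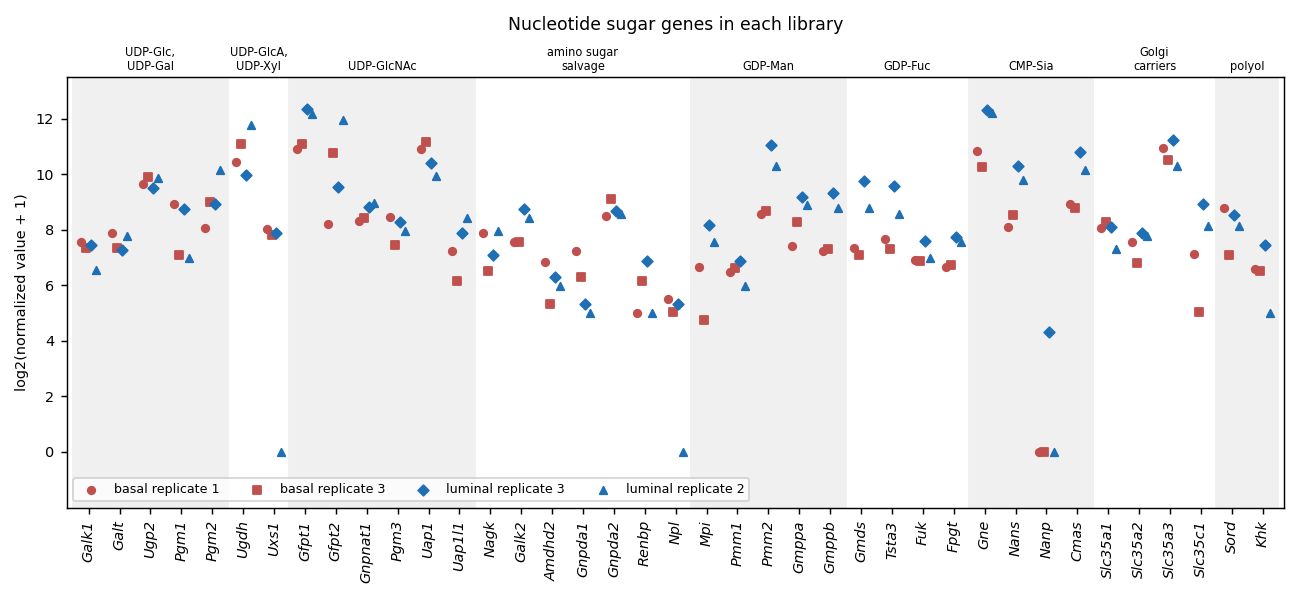
Normalized value of each of the 39 genes in each of the 4 libraries on a log2(value + 1) axis, grouped by role; red symbols are basal libraries and blue symbols luminal ones, with a shape for each replicate. The luminal symbols sit above the basal ones in Pmm2, Gmppb, Gmds, Tsta3, Gne, Nans and Cmas, and the symbols at 0 are Uxs1 and Npl in luminal replicate 2 and Nanp in 3 libraries.

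In GDP-mannose synthesis, 4 of the 5 genes were past the fold threshold on the luminal side, and the median log2 fold change of the 5 was 1.78. Pmm2, the phosphomannomutase of the pathway (ENSMUSG00000022711, chromosome 16 from 8637674 to 8662467 in GRCm38), was at 376 and 409 in basal and 2110 and 1247 in luminal libraries. The groups did not overlap, and the ratio of averages was 4.28, with single pairings of libraries between 3.05 and 5.61. The log2 fold change was 2.05 (standard error 0.36, limma adjusted p = 0.0688), and the edgeR adjusted p was 0.00718. Gmppb, the catalytic subunit of GDP-mannose pyrophosphorylase, was at 150 and 156 in basal and 639 and 436 in luminal libraries, a ratio of 3.51 (edgeR adjusted p = 0.0604). Of the exon bases of Gmppb, 33.6% also lie in other genes, among them Rnf123 on the opposite strand, and the sources do not say whether strand was used in counting. Gmppa, its regulatory subunit, was at 169 and 312 against 581 and 467, a ratio of 2.18 (edgeR adjusted p = 0.243). The Gmppa groups did not overlap, but the ratio fell under 2 without basal replicate 1 or without luminal replicate 3.

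Mpi, the isomerase that draws fructose phosphate into the mannose route, was at 100 and 26 in basal and 290 and 187 in luminal libraries. Its ratio was 3.79, its basal value in replicate 3 rests on 4 reads, and the pairings ran from 1.87 to 11.2 (edgeR adjusted p = 0.215). Pmm1, the paralog of Pmm2, was at 88 and 97 against 116 and 62, with overlapping groups and a ratio of 0.962. In GDP-mannose synthesis Pmm1 was thus the only gene under the fold threshold.

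GDP-fucose is made either from GDP-mannose, by Gmds and Tsta3, or from free fucose, by Fuk and Fpgt. The 2 genes of the first route passed the fold threshold on the luminal side, and the 2 of the salvage route did not, although Fpgt passed it with median-ratio scaling, with nuclear scaling, without basal replicate 3 and without luminal replicate 2. Gmds, the GDP-mannose dehydratase (ENSMUSG00000038372, chromosome 13 from 31819579 to 32338740), was at 163 and 136 in basal and 871 and 436 in luminal libraries. Its ratio was 4.37 and its log2 fold change 2.04 (standard error 0.51, limma adjusted p = 0.104), with an edgeR adjusted p of 0.0292. Tsta3, also called Gfus, the GDP-fucose synthase, was at 200 and 156 against 755 and 374, a ratio of 3.17 (edgeR adjusted p = 0.0856). Both genes had luminal values above both basal values, and luminal replicate 3 was the highest library in each.

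Fuk, the fucokinase also called Fcsk, was at 119 and 117 in basal and 194 and 125 in luminal libraries, a ratio of 1.35. Fpgt, which joins fucose phosphate to GDP, was at 100 and 104 against 213 and 187, a ratio of 1.96. Their luminal values also lay above their basal ones, with 4 to 11 reads per luminal library behind them, and edgeR adjusted p was 0.773 and 0.489. The difference in fold change between the synthesis and salvage genes was not tested. Slc35c1, the carrier that takes GDP-fucose into the Golgi, was at 138 and 32 in basal and 484 and 280 in luminal libraries. Its ratio was 4.49, the highest of the 38 members, and the pairings ran from 2.03 to 15.1, with 5 reads in basal replicate 3 (edgeR adjusted p = 0.112).

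In sialic acid synthesis all 3 genes that passed the filter were 2-fold or more higher in luminal cells, and edgeR and DESeq2 called each of them. Gne (ENSMUSG00000028479, chromosome 4 from 44034075 to 44084177) was at 1829 and 1215 in basal and 5112 and 4643 in luminal libraries. Its ratio was 3.20, every pairing lay between 2.54 and 4.21, and the log2 fold change was 1.71 (standard error 0.28, limma adjusted p = 0.0659, edgeR adjusted p = 0.00660). Nans, the sialic acid phosphate synthase, was at 276 and 370 against 1239 and 873, a ratio of 3.27 (limma adjusted p = 0.0722, edgeR adjusted p = 0.0300). Of its exon bases 29.6% also lie in Trim14 on the opposite strand. Cmas (ENSMUSG00000030282, chromosome 6 from 142756686 to 142775714) was at 488 and 442 against 1762 and 1122, a ratio of 3.10 (limma adjusted p = 0.0705, edgeR adjusted p = 0.0234).

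The carrier that follows them, Slc35a1, which brings CMP-sialic acid into the Golgi, was at 263 and 312 in basal and 271 and 156 in luminal libraries. Its groups overlapped and its ratio was 0.743, on 14 and 5 luminal reads. Per kilobase of exon, Gne had the highest luminal average of the 39 genes at 767, Cmas was at 306 and Nans at 231. In basal libraries Gne was at 239 per kilobase, behind Uap1 at 522, Ugp2 at 286 and Ugdh at 264. The mannose, fucose and sialic acid routes were pooled without a prior plan. Over them together, 9 of the 12 genes kept passed 2-fold toward luminal and 0 toward basal cells. Groups did not overlap in 11 of the 12, and edgeR called 5. The shares of all genes kept were 18.3% and 16.3% by the fold rule, 23.6% for luminal libraries lying above and 2.36% for luminal calls of edgeR. In all 12 luminal replicate 3 was above luminal replicate 2, as the sum of the luminal keratins and Cd24a was (47941 and 29387), and Epcam, the marker used in the sort (9081 and 6170). Epcam was at 2355 and 3683 in basal libraries, so it too was higher in luminal cells, with a ratio of 2.53, inside the range of ratios of the 6 members called by edgeR, and an edgeR adjusted p of 0.0456, above theirs. The part of the epithelial share in these differences was not tested.

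**Figure D2:**
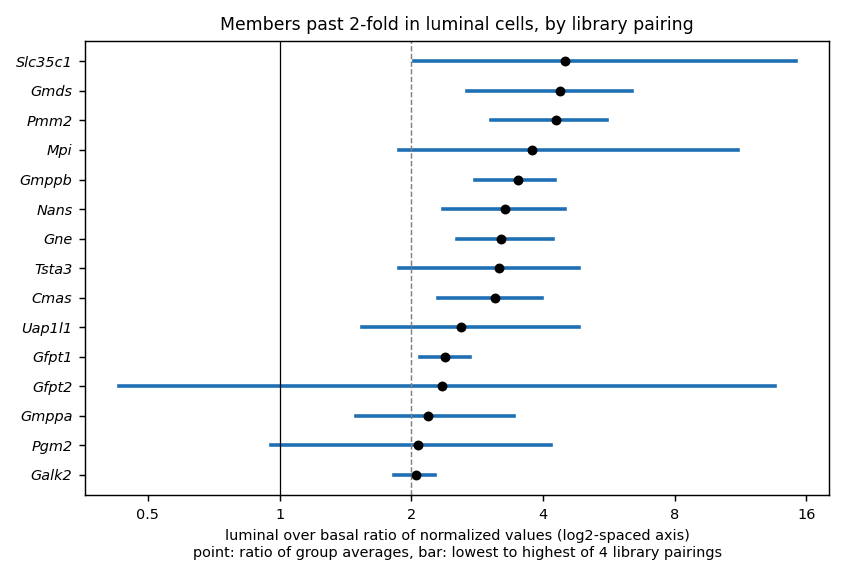
Ratio of luminal to basal normalized values for the 15 members past 2-fold in luminal cells, on a log2-spaced axis; points are ratios of group averages and bars run from the lowest to the highest of the 4 pairings of a luminal with a basal library. Bars of 8 genes lie wholly at 2 or more, and those of Gfpt2 and Pgm2 cross 1.

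The 15 members past the fold threshold differed in how far their libraries bore them out. In 8 of the 15 every pairing of a luminal with a basal library gave a ratio of 2 or more, and in 13 of 15 the groups did not overlap. Of the 3431 genes past the same threshold in the whole table, 46.3% and 82.4% met these conditions, so the members are near the share of such genes. The 2 members with overlapping groups were Gfpt2 and Pgm2. Luminal replicate 3 was the higher luminal library in 12 of the 15, and in 30 of all 38 members kept. Of the 15, 2 had fewer than 10 reads in a luminal library, compared with 19 of all 38. Beyond these, 4 members had groups that did not overlap but a ratio under 2, namely Gnpnat1, Fuk, Fpgt and Slc35a2.

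UDP-GlcNAc synthesis held 3 members 2-fold or more higher in luminal cells and 1 whose basal libraries were both higher, Uap1. Gfpt1 (ENSMUSG00000029992, chromosome 6 from 87042846 to 87092197) was at 1916 and 2189 in basal and 5228 and 4581 in luminal libraries. The ratio was 2.39 with pairings between 2.09 and 2.73, the narrowest range of the 6 genes called by edgeR, and the log2 fold change was 1.26 (standard error 0.22, limma adjusted p = 0.0688, edgeR adjusted p = 0.0277). Gfpt2 reached nearly the same ratio, 2.35, on values of 294 and 1715 in basal and 736 and 3989 in luminal libraries. Its groups overlapped, its pairings ran from 0.429 to 13.6 (edgeR adjusted p = 0.442), and its log2 fold change was -0.00099 without basal replicate 1.

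Gnpnat1, the acetyltransferase of the next step, was at 319 and 338 against 445 and 499, a ratio of 1.44, but 83.5% of its exon bases also lie in other genes, among them Styx on the opposite strand. Pgm3, the mutase that follows, was at 351 and 175 against 310 and 249, a ratio of 1.06. Uap1, the pyrophosphorylase that completes UDP-GlcNAc, was at 1916 and 2274 in basal and 1336 and 966 in luminal libraries. Its log2 fold change was -0.88 (standard error 0.28, limma adjusted p = 0.185, edgeR adjusted p = 0.203), and its groups did not overlap. Uap1l1, its paralog, was at 150 and 71 against 232 and 343, a ratio of 2.60 with pairings from 1.55 to 4.83 (edgeR adjusted p = 0.297).

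**Figure D3:**
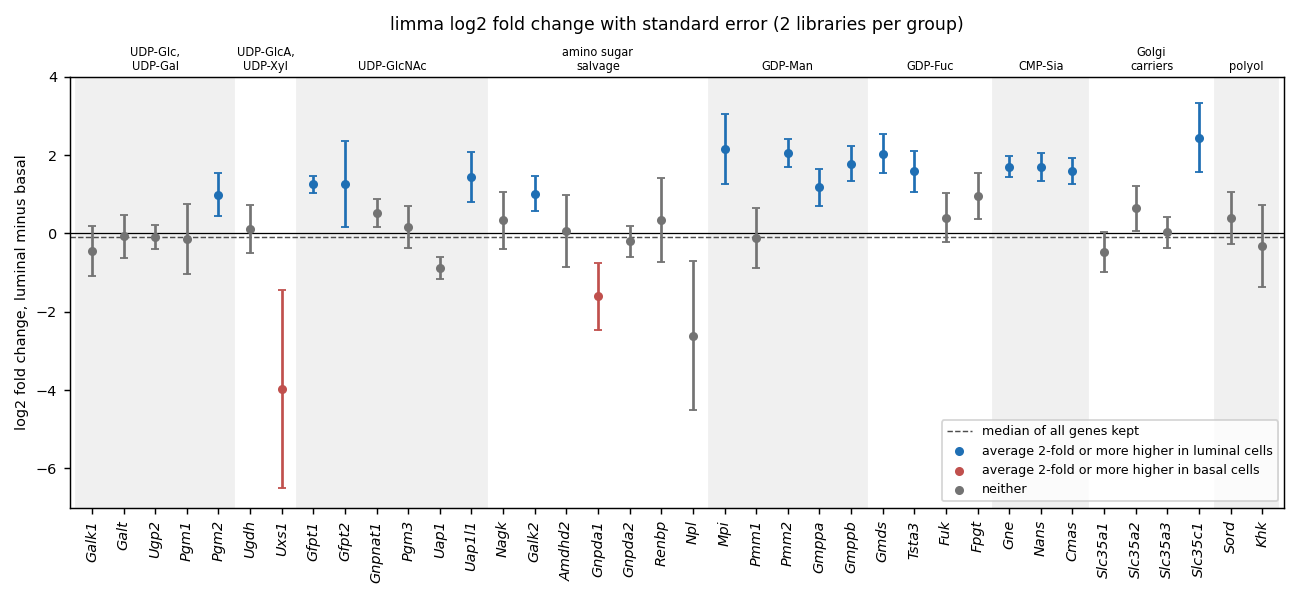
limma log2 fold change, luminal minus basal, of the 38 members that passed the filter, with bars of 1 standard error (2 libraries per group); blue marks members 2-fold or more higher in luminal cells, red those in basal cells, and the dashed line is the median of all genes kept (-0.10). The GDP-mannose, GDP-fucose and CMP-sialic acid genes other than Pmm1 lie above 0, and Uxs1 and Npl, with a luminal library at 0 reads, have the widest bars.

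In UDP-glucose and UDP-galactose synthesis no gene had groups that stood apart. Ugp2, which makes UDP-glucose, was at 795 and 961 in basal and 716 and 935 in luminal libraries, a ratio of 0.940. Galk1 and Galt, which bring galactose into the pool, had ratios of 0.763 and 0.947. Pgm1, the main phosphoglucomutase (chromosome 4), was at 482 and 136 against 426 and 125, and differed more between the libraries of a group than between groups. Pgm2 (chromosome 5), which acts mainly on pentose phosphates, was at 269 and 507 against 484 and 1122, a ratio of 2.07 with overlapping groups (edgeR adjusted p = 0.298). The symbols Pgm1 and Pgm2 have been exchanged between mouse annotations, and the genes are given here by the identifiers ENSMUSG00000025791 and ENSMUSG00000029171.

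Ugdh, which oxidizes UDP-glucose to UDP-glucuronate for glycosaminoglycans, was at 1397 and 2163 in basal and 1007 and 3490 in luminal libraries. Its groups overlapped and its ratio was 1.26, with the highest and the lowest value both in luminal libraries. Uxs1, which converts UDP-glucuronate to UDP-xylose, was past the fold threshold in basal cells with 257 and 221 against 232 and 0. The call rests on luminal replicate 2, whose 0 allows up to 3 reads, while the other luminal library had 12 reads and a value between the basal ones.

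Ugdh, Gfpt2, Pgm2, Ugp2 and Gnpnat1 were the 5 of 38 members that were higher in luminal replicate 2 and in basal replicate 3 than in the other library of the group. The share of all genes with this order was not counted, so the number of members cannot be judged against it. In Gnpnat1 the differences were small, 319 and 338 in basal and 445 and 499 in luminal libraries. The sum of the 8 stromal markers, given above, had the same order. Col1a1, a fibrillar collagen, was at 17210, 59670, 22886 and 56436 in that order, and Lum, a matrix proteoglycan, at 269, 1390, 484 and 1558, where Gfpt2 was at 294, 1715, 736 and 3989. Other stromal markers differed from Gfpt2 between the groups. Dcn was at 45830, 47724, 5770 and 20256, with both basal libraries above both luminal ones. Vim and Pdgfrb had luminal over basal ratios of 0.890 and 0.780, where Gfpt2 had 2.35. The part of stromal RNA in the values of these 5 genes was not tested.

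**Figure D4:**
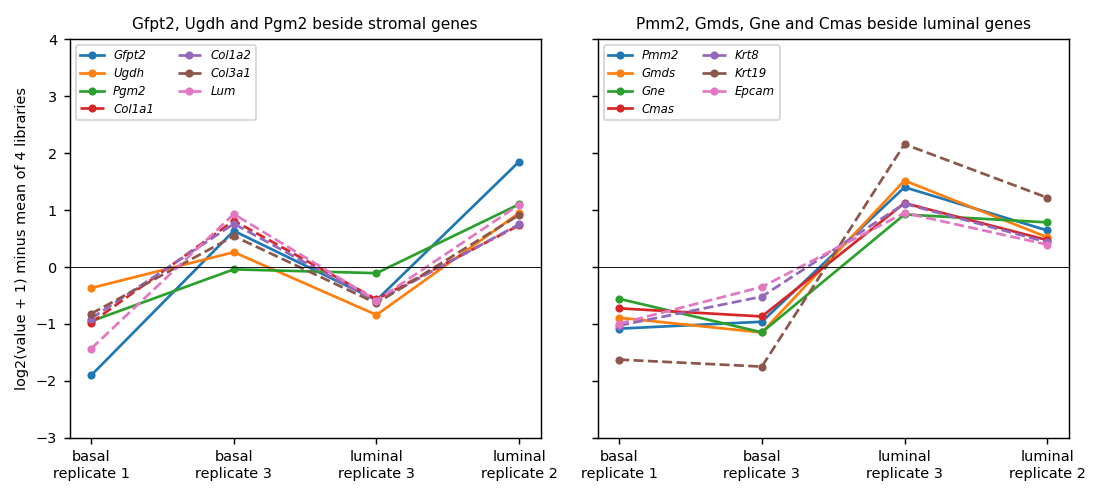
log2(value + 1) minus the mean of the 4 libraries, for 3 members beside 4 stromal markers (left) and for 4 members beside 3 epithelial markers (right); solid lines are members, dashed lines markers, and the genes were chosen after their values were seen. On the left basal replicate 3 and luminal replicate 2 are the high libraries (Gfpt2 at 1715 and 3989). On the right both luminal libraries lie above both basal ones (Pmm2 at 2110 and 1247 against 376 and 409). Markers not drawn include Dcn, whose basal libraries lay above its luminal ones, and Cd24a, whose groups overlapped.

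Among the 7 genes of amino sugar salvage and breakdown, Galk2 passed 2-fold toward luminal cells and Gnpda1 toward basal cells. Of all genes kept, 18.3% and 16.3% did so, and 1 of 7 each way is near these shares. Galk2, which phosphorylates N-acetylgalactosamine, was at 188 and 188 in basal and 426 and 343 in luminal libraries, a ratio of 2.05 with pairings from 1.82 to 2.27 (edgeR adjusted p = 0.299). Gnpda1, a deaminase that returns glucosamine phosphate to glycolysis, was at 150 and 78 against 39 and 31, on only 2 and 1 luminal reads. Its ratio of reads per library total was 0.311, with a 95% exact interval from 0.061 to 0.985 that covers counting error only. Its paralog Gnpda2 was at 363 and 552 against 407 and 374, a ratio of 0.854. Nagk, which phosphorylates free N-acetylglucosamine, had a ratio of 1.19 and Amdhd2, a deacetylase, ranged from 39 to 113 over the 4 libraries. Renbp, an epimerase, ranged from 31 to 116, and Npl, which splits sialic acid, from 0 to 44, with 0 to 6 luminal reads, and no difference was detectable at this depth.

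Of the 4 Golgi carriers, Slc35c1 was past the fold threshold and the others were not. Slc35a3, the UDP-GlcNAc carrier, was at 1985 and 1442 in basal and 2382 and 1247 in luminal libraries, a ratio of 1.06. Slc35a2, the UDP-galactose carrier, was at 188 and 110 against 232 and 218, a ratio of 1.51 (edgeR adjusted p = 0.657). Of the polyol genes, Sord, which oxidizes sorbitol to fructose, was at 438 and 136 against 368 and 280, and Khk, the fructokinase, at 94 and 91 against 174 and 31. The groups of both overlapped.

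The 7 pairs of related genes among the members were compared as shares of the pair's level per kilobase of exon. Pmm2 held 68.9% and 68.6% of the Pmm1 and Pmm2 level in basal libraries and 90.4% and 91.2% in luminal ones, or 68.7% ± 0.2 and 90.8% ± 0.6 (SD, n = 2). The difference of 22.1 percentage points was larger than the spread between the libraries of a group, and it was 14.1 points in reads without division by length. The luminal shares rest on few Pmm1 reads. Pmm2 had 109 of 115 reads of the pair in luminal replicate 3 and 40 of 42 in luminal replicate 2, against 60 of 74 and 63 of 78 in basal libraries. The 95% Wilson interval of the read share was 84.2% to 98.7% in luminal replicate 2 and 70.7% to 88.4% in basal replicate 1, so these overlap in counting error. The interval of luminal replicate 3, 89.1% to 97.6%, lay above those of both basal libraries. Galk2 held 18.8% and 21.1% of the Galk1 and Galk2 level in basal and 36.1% and 46.0% in luminal libraries. Uap1l1 held 7.16% and 2.98% of the Uap1 and Uap1l1 level against 14.6% and 25.9%, so Uap1 stayed the larger partner in every library. Gnpda1 held 39.7% and 18.4% against 13.2% and 11.7%, and Gmppb 43.3% and 30.1% against 48.6% and 44.5%. In both of these pairs the read intervals overlapped between groups, and Gnpda1 had 2 of 23 and 1 of 13 luminal reads.

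The other pairs had shares that overlapped between groups. Gfpt2 held 21.7% and 58.5% of the Gfpt1 and Gfpt2 level in basal libraries and 20.2% and 61.1% in luminal ones, a mean of 40.1% ± 26.1 and 40.6% ± 28.9 (SD, n = 2). Pgm2 held 38.6% and 80.8% of the Pgm1 and Pgm2 level against 56.2% and 91.0%. In both pairs the share was higher, within each group, in the library with the higher stromal sum. Gfpt1 itself differed little within a group, at 1916 and 2189 and at 5228 and 4581.

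**Figure D5:**
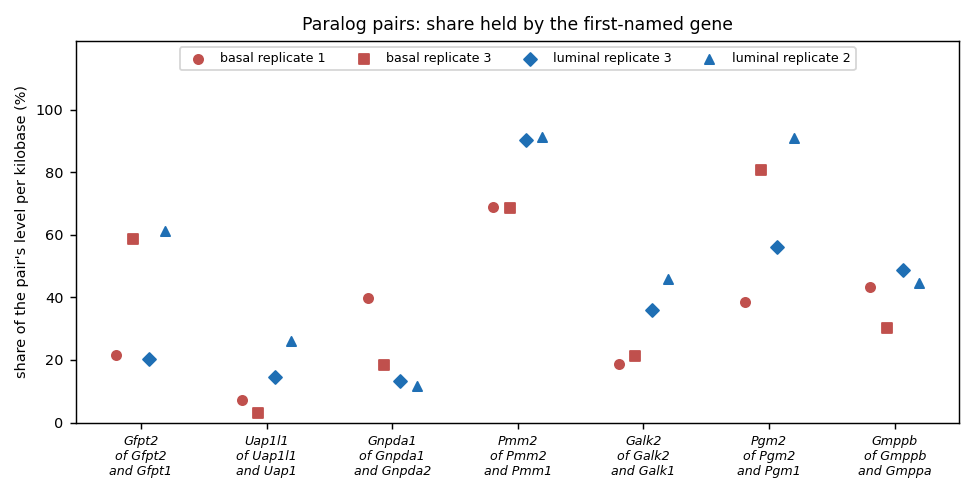
Share of a paralog pair's level per kilobase of exon held by the first-named gene in each library, in percent; red symbols are basal and blue symbols luminal libraries, with no error bars because every library is shown. Pmm2 goes from 68.9% and 68.6% to 90.4% and 91.2%, while the shares of Gfpt2 and Pgm2 overlap between groups.

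Another 47 genes of related function were examined beside the members, covering other carriers, sulfate donors, hexose entry, dolichol-linked donors, users of nucleotide sugars and polyol enzymes. Of these, 40 passed the filter, 9 of them 2-fold or more higher in luminal and 3 in basal cells, and their median log2 fold change was 0.30. By the same rule 18.3% of all genes kept were higher in luminal and 16.3% in basal cells, so the luminal count is near the background. With the filter passed by both groups the luminal count was 7, where 12.4% of all genes were called. Both luminal libraries lay above both basal ones in 17 of the 40 and below them in 3, where 23.6% and 27.3% of all genes kept did so. limma called none (lowest adjusted p = 0.0671), and 6 of the 40 had an unadjusted limma p under 0.05, against 18.5% of all genes kept. edgeR and DESeq2 called 1, toward basal cells, where they called 2.72% and 2.89% of the genes tested. These counts are near or below the background. The gene called was Slc35d1, a carrier of UDP-glucuronate and UDP-N-acetylgalactosamine in the endoplasmic reticulum. Slc35d1 was at 883 and 760 in basal and 174 and 187 in luminal libraries (edgeR adjusted p = 0.0161). Slc35b3, a carrier of the sulfate donor PAPS, was at 251 and 240 against 736 and 436, a ratio of 2.39. Entpd4, a Golgi nucleotidase, was at 19 and 26 against 174 and 125, on 3 and 4 basal and 9 and 4 luminal reads. Neu1, the lysosomal sialidase, was at 163 and 175 against 407 and 312. Akr1b10, an aldo-keto reductase, was at 175 and 156 against 407 and 592.

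Slc35c2, a carrier linked to GDP-fucose, was at 150 and 52 in basal and 562 and 62 in luminal libraries, so that luminal replicate 3 alone gave its ratio of 3.09. Slc35d2 was at 45 and 40 against 155 and 62, on 8 and 2 luminal reads. Slc35d3 was at 38 and 32 against 39 and 187, on 2 and 6 luminal reads. The remaining luminal calls were Dpm3 (50 and 6 against 136 and 62) and Hk3, which had 1 read in each luminal library and 0 in each basal one. Pgm5, a phosphoglucomutase relative found at muscle adhesion sites, was at 2380 and 2299 against 213 and 2026, with the low value in the library that also had the lowest smooth muscle sum (9887). Nudt14, a UDP-glucose hydrolase, was at 251 and 97 against 136 and 0. Ogt and Oga, the enzymes that add and remove O-GlcNAc, were past neither bound, with Ogt at 9864 and 11270 against 10649 and 9255.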

How the data were processed

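Per the labels and the methods, the authors aligned reads with STAR to GRCm38 (mm10), counted them with HTSeq on Ensembl release 87, scaled every library's counts to 1 total and deposited this signal in whole numbers. Picard is named with no role, and whether duplicates were removed or strand was used is not given in the sources used here. The deposited columns of all 4 libraries were mapped to a sample and 0 were left over. Symbols and exons came from GENCODE vM21, which held 49412 of the 49671 identifiers. Whole reads were recovered from the spacing of low values, on which 97.9% to 99.0% of them lay. 506 genes had a value on another spacing, among them the related gene Slc35d2, and 0 of the members did. The table's low values had not been filtered.

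limma 3.58.1, with its trended prior, was fitted to log2(value + 1) of all genes kept, p was adjusted by Benjamini and Hochberg's method, and edgeR 4.0.16 (TMM) and DESeq2 1.42.0 were fitted to recovered reads, in R 4.3.3. The limma and edgeR fits were tested on simulated data, and the DESeq2 fit was not. Groups followed the labels. Members and lists were chosen with earlier results of these data known. Values in every library are given for members past the fold threshold with a group average of at least 100, for described paralogs, for members called by a test and for related genes past the threshold, and Dpm3, Hk3, Ogt and the other members were named after their values were seen. Alternatives changed the filter, pseudocount, scaling, threshold, limma prior and test and left out each library.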

Additional observations from a re-analysis of the deposited data

How the results depend on the processing

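The 17 members past the fold threshold, 16 of them under the stricter filter, had the same sign of log2 fold change under each filter, scaling, pseudocount and test that was tried and without each library, with 1 exception. Without basal replicate 1, Gfpt2 gave -0.00099 (limma adjusted p = 1.00), against 2.54 without basal replicate 3. The luminal count of 15 was 9 at a threshold of 3 (10.8% of all genes), and 13 to 16 without 1 library (19.5% to 26.8%), with the 13 and the 26.8% both without luminal replicate 3. Gfpt2 and Pgm2 lost the call without basal replicate 1 or luminal replicate 2, Gmppa without basal replicate 1 or luminal replicate 3, Galk2 without luminal replicate 3 and Uap1l1 without basal replicate 3. Without basal replicate 1, 12 of the 15 remained and Nagk, Pgm1, Slc35a2 and Sord joined. Fpgt joined with median-ratio or nuclear scaling and, with Renbp, without basal replicate 3 or luminal replicate 2, and Nanp joined with no filter. Pairs of libraries were also compared alone, an alternative added after seeing the data. Basal replicate 1 with luminal replicate 3 gave 15 members and 20.9% of all genes, and basal replicate 3 with luminal replicate 2 gave 15 and 29.4%.

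The basal count of 2 was 1 with the filter passed by both groups (12.0% of all genes), with median-ratio scaling (15.6%), with scaling to nuclear protein-coding genes (11.5%) and at a threshold of 3 (8.68%). It was 4 at 1.5 (27.4%), 1 and 7 in the first and second pair alone, and 1 without basal replicate 1 (17.0%) or luminal replicate 2 (23.4%) to 6 without luminal replicate 3. The share of all genes was 26.5% and 17.6% in the first and second pair and 17.5% without luminal replicate 3, so the 7 and the 6 of 38 are near the background. Uxs1 lost the basal call without basal replicate 1 or luminal replicate 2, with the filter passed by both groups and with either other scaling. For the related genes the luminal count of 9 was 14 at 1.5 (27.4% of all genes) and 7 to 11 without 1 library (19.5% to 26.8%). Their basal count of 3 was 5 with no filter and in either pair alone, 1 with nuclear scaling, 1 at a threshold of 3, and 3 to 5 without 1 library (5 without luminal replicate 2). The share of all genes called basal was 28.0% with no filter. The limma luminal count of 0 was 4 with the filter passed by both groups and 3 with a pseudocount of 10. With edgeR and DESeq2 it was 6 and 6. In that order, 1.80%, 1.13%, 2.36% and 2.80% of all genes were called. The count stayed 0 without the trended prior (1.19% of all genes), with no filter (0%) and with median-ratio (0.219%) or nuclear scaling (0.336%). It was 0 to 0 without 1 library (0.0317% to 4.01%), where 1 group has a single library and the other alone gives the spread, so this says nothing about stability. The cause was not tested.

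The median log2 fold change of 0.40 was 0.70 with nuclear scaling, and 0.40 to 0.70 without 1 library (0.70 without basal replicate 1). In single pairings of libraries it ran from 0.22 (luminal replicate 2, basal replicate 1) to 0.86 (replicate 3 of both groups). The median of all genes kept ran from -0.16 to 0.03 over the pairings. The difference in the Pmm2 share was 14.1 points without division by length and 21.7 to 22.5 without 1 library, while that of Gfpt2 ran from -19.9 to 21.0 and that of Pgm2 from -7.20 to 35.0. No paired analysis was possible because the groups share only replicate number 3. Depth limits the smaller members, since 19 of 38 had under 10 reads in a luminal library.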
